A study of Macaca mulatta with 2 samples.

Results

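The proteasome genes expressed in the infant rhesus macaque prefrontal cortex were examined in 1 control library (CON) and 1 sevoflurane library (SEV), the sequencing libraries analysed here. Genes were taken by symbol, as every row of the count table named PSMA to PSMG followed by a number, and 48 of the 33618 rows matched. Of these, 44 reached at least 1 CPM (reads per 1000000 reads of the library, from raw counts) in either library and were described. All 44 reached that level in both libraries. The other 4 rows were PSMA8, PSMB8, PSMB9 and PSMB11.

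The proteasome is the protease complex that degrades proteins tagged with ubiquitin. Its core particle stacks rings of alpha subunits, which gate the chamber, around rings of beta subunits, some of which cut the substrate. A regulatory particle made of ATPases and non-ATPase subunits recognises, unfolds and feeds in the tagged protein, and dedicated chaperones put both particles together. In neurons the proteasome is known for its part in synaptic remodelling, and interferon exchanges the catalytic beta subunits for inducible ones in the immunoproteasome.

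Both animals were rhesus macaques labelled as postnatal day 28, and no allele or strain is labelled. The labels state that animals inhaled sevoflurane, a volatile anesthetic, at about 2.5 to 3% for 4 h on each of postnatal days 7, 14 and 28. The study's results section gives the same days, but its methods place the later exposures on later days. The methods put the harvest of tissue right after the last exposure, which would make the exposed animals older than the labelled day 28. They do not say how the control animals were handled. The control group was female and the sevoflurane group held both sexes. The design lists 3 samples per group, and the other animals were not analysed here. With 1 library per group there were no replicates, so no p-value is given. Each difference is one between a pair of animals, and says nothing of how animals of one group vary.

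Reads assigned to genes numbered 16960880 for the control and 9839105 for the sevoflurane animal. Levels are given as CPM scaled by edgeR's TMM factors, and differences as the log2 ratio of sevoflurane over control with a prior count of 2, with the exact 95% interval that the read counts allow. With 1 library per group, intervals cover counting error only and leave out the variation between animals. No molecular identifiers were named, so reads copied from the same molecule may be counted as separate, which would make the intervals too narrow. The libraries also differed in cell type markers. All 8 oligodendrocyte markers were lower in the sevoflurane library by their intervals (summed level 4176 control and 2055 sevoflurane CPM), and 5 of 7 astrocyte markers were lower and 1 was higher (6147 and 4264 CPM). Of 10 neuron markers, 8 were lower and 1 was higher (8959 and 7482 CPM), of 10 microglia markers 1 was lower and 5 were higher (242 and 269 CPM), of 8 endothelial markers 2 were lower and 1 was higher (218 and 210 CPM), and of 4 red blood cell markers 3 were higher (24.8 and 80.8 CPM). No marker of these lists was at 0 in both libraries, and neuron markers were abundant in each. On 7 Y-linked genes the control library held 3 reads and the sevoflurane library 4308. These reads mark the control animal as female and the sevoflurane animal as male. Animal, sex and exposure cannot be told apart, and the part of cell composition and sex in the values below was not tested. In bulk tissue fewer cells of a type and less RNA per cell cannot be told apart.

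Proteasome transcripts were modestly lower in the sevoflurane library. The 44 genes summed to 2092 control and 1682 sevoflurane CPM (log2 ratio -0.32, 95% interval -0.34 to -0.29), or 0.207% and 0.170% of all reads. The log2 ratio was below 0 for 38 genes and above 0 for 6, with a median of -0.32 against -0.0048 over all 18050 tested genes. By their intervals, 26 of the 44 genes (59.1%) were lower and 0 were higher. Over all tested genes, 28.1% were lower and 28.4% were higher by the same measure. Because a well-read gene has a narrow interval, the counts were repeated on genes with at least 5 CPM, where 25 of 42 proteasome genes (59.5%) were lower against 32.8% of 13569 genes, and 0 were higher against 30.3%.

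**Figure D1:**
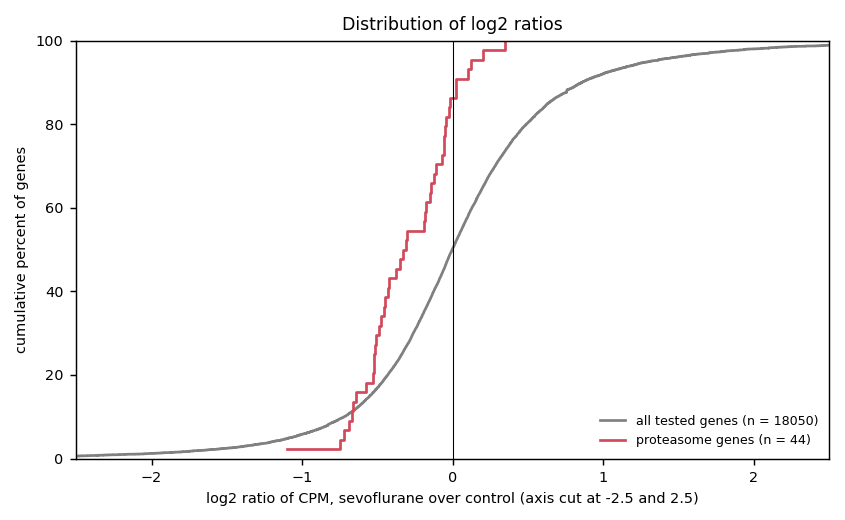
Cumulative percent of genes (vertical axis) by log2 ratio of CPM, sevoflurane over control (horizontal axis, far ends not shown), for the 44 proteasome genes and all 18050 tested genes. The proteasome curve lies to the left in its middle, with a median of -0.32 against -0.0048, and does not reach the far ends, since its values run from -1.10 to 0.35.

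The size of the differences was small. At least 1.5-fold lower, with an interval excluding equal expression, were 7 of 44 genes (15.9%), close to the 11.9% of all tested genes, and 0 were at least 1.5-fold higher against 14.4%. These 7 were PSMA1, PSMA2, PSMA5, PSMA7, PSMB5, PSMC1 and PSMG4. Only PSMA5 passed 2-fold (2.27% of the genes, against 5.47% of all tested genes), and 0 were at least 2-fold higher (7.56% of all tested genes). Among genes with at least 5 CPM, 6 of 42 (14.3%) were at least 1.5-fold lower against 11.3%, and 0 were higher against 11.7%. The middle 50% of the proteasome genes lay between -0.52 and -0.06, and that of all tested genes between -0.34 and 0.37.

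**Figure D2:**
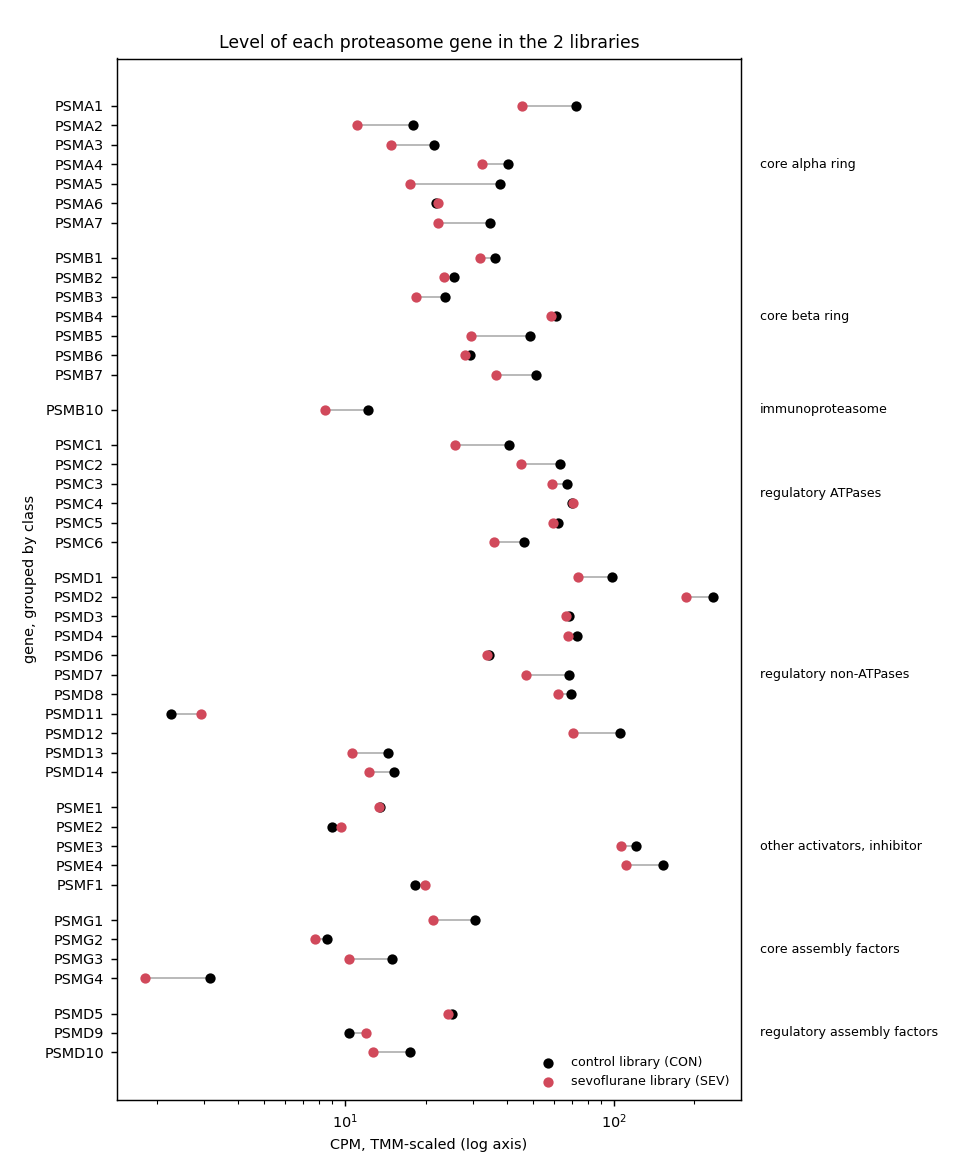
TMM-scaled CPM of each of the 44 proteasome genes (horizontal log axis) in the control library (black) and the sevoflurane library (red), grouped by class. The red point lies left of the black one for 38 genes, and PSMA5 has the widest gap on the log axis, from 37.8 to 17.5 CPM. Levels of different genes are not comparable here, since they are not divided by gene length.

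The alpha ring had the lowest median of the classes with several genes. Its 7 expressed genes had a median log2 ratio of -0.64, 6 were lower by their intervals, and 4 were at least 1.5-fold lower. Summed over the ring, the level was 247 CPM against 166 CPM in the sevoflurane library (log2 ratio -0.57, 95% interval -0.65 to -0.49). PSMA5 had 635 control and 174 sevoflurane reads, or 37.8 and 17.5 CPM (log2 ratio -1.10, 95% interval -1.36 to -0.86), which left 46.4% of the control level. PSMA2 followed with 302 and 110 reads, or 17.97 and 11.1 CPM (-0.69, -1.03 to -0.38). These are structural subunits of the gate ring and do not cut peptides themselves. PSMA1 had 1218 and 455 reads, or 72.5 and 45.8 CPM (-0.66, -0.82 to -0.51), and PSMA7 had 583 and 220 reads, or 34.7 and 22.2 CPM (-0.64, -0.88 to -0.42). PSMA3 had 362 and 148 reads, or 21.5 and 14.9 CPM (-0.53, -0.82 to -0.25). PSMA4, whose amino terminal tail takes a leading part in closing the gate, was less apart, with 678 and 323 reads, or 40.3 and 32.5 CPM (-0.31, -0.51 to -0.12).

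PSMA6 was the alpha gene whose interval included equal expression. It had 368 and 221 reads, or 21.9 and 22.3 CPM, at 102% of the control level (log2 ratio 0.02, 95% interval -0.22 to 0.27). A complete ring holds the alpha subunits in equal number. The ratio of PSMA5 to PSMA6 reads went from 1.73 (control) to 0.787 (sevoflurane), a change by a factor of 0.456 (95% interval 0.358 to 0.582). These genes had the lowest and highest log2 ratios of the ring, and the pair was chosen after the values were seen. The same holds for the choice of all ratios below that do not involve inducible subunits. Their intervals are not adjusted for that choice. In the RefSeq annotation of the macaque assembly T2T-MMU8v2.0, the span of PSMA6 overlaps that of PRORP, and whether the authors' counting used strand is not given in the sources used here. PSMA8, the alpha subunit of the testis, had 0 reads in both libraries, where the floor of 3 reads corresponds to 0.177 control and 0.305 sevoflurane CPM by raw counts.

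In the beta ring the 7 constitutive genes had log2 ratios from -0.72 to -0.06, with a median of -0.19. By their intervals 3 were lower and the other 4 included equal expression. The ring summed to 276 and 226 CPM (log2 ratio -0.29, 95% interval -0.36 to -0.21). The ratio of alpha to beta ring reads within a library was 0.894 and 0.735, a change by a factor of 0.822 (95% interval 0.761 to 0.888). The alpha ring was thus further down than the beta ring beyond counting error, in a comparison chosen after the values were seen.

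The catalytic beta subunits did not move alike. PSMB5, which carries the chymotrypsin-like activity and is the main target of proteasome inhibitor drugs, had 821 control and 293 sevoflurane reads, or 48.9 and 29.5 CPM (log2 ratio -0.72, 95% interval -0.93 to -0.53). PSMB7, the trypsin-like subunit, had 864 and 363 reads, or 51.4 and 36.6 CPM (-0.49, -0.67 to -0.31). PSMB6, the caspase-like subunit, had 493 and 277 reads, or 29.3 and 27.9 CPM (-0.07, -0.29 to 0.14). Both of the former were thus lower and the latter was not distinguishable from equal expression. The ratio of PSMB5 to PSMB6 reads changed by a factor of 0.635 (95% interval 0.518 to 0.779) and that of PSMB7 to PSMB6 by 0.748 (0.615 to 0.910), while that of PSMB5 to PSMB7 changed by 0.849 with an interval that included 1 (0.706 to 1.02). The spans of PSMB3 and PIP4K2B overlap in the same annotation. Among the non-catalytic beta genes, PSMB3 was lower, with 395 and 183 reads, or 23.5 and 18.4 CPM (-0.35, -0.61 to -0.09). PSMB1 (-0.19), PSMB2 (-0.13) and PSMB4 (-0.06) had intervals that included equal expression.

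The inducible subunits of the immunoproteasome were scarce except for PSMB10. PSMB10, which replaces PSMB7, had 205 control and 84 sevoflurane reads, or 12.2 and 8.46 CPM (log2 ratio -0.52, 95% interval -0.91 to -0.16). PSMB8, which replaces PSMB5, had 7 reads in each library, or 0.413 and 0.711 CPM by raw counts, under the minimum of 1 CPM. PSMB9, which replaces PSMB6, had 9 and 5 reads, or 0.531 and 0.508 CPM by raw counts, and the interval of its ratio ran from -2.01 to 1.64. The lowest genes above that minimum were PSMG4, at 3.12 and 1.83 CPM by raw counts, and PSMD11, at 2.24 and 2.95 CPM by raw counts. PSMB11, the subunit of the thymus, had 2 and 0 reads, under the floor of 3 reads in both libraries.

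A shift between the constitutive and the inducible form was not detectable at this depth. The ratio of PSMB10 to PSMB7 reads was 0.237 (control) and 0.231 (sevoflurane), a change by a factor of 0.975 (95% interval 0.726 to 1.30). For PSMB9 to PSMB6 the factor was 0.989 (0.258 to 3.32), and for PSMB8 to PSMB5 it was 2.80, with an interval from 0.830 to 9.44 that rests on 7 reads per library. Summed over the inducible and over the constitutive catalytic genes the factor was 1.01 (0.780 to 1.31). PSMB10 gave 205 of the 221 control and 84 of the 96 sevoflurane inducible reads. This sum thus mostly follows PSMB10 and says little of PSMB8 or PSMB9. In the same RefSeq annotation PSMB8 lies between TAP1 and TAP2 and overlaps neither. The span of PSMB9 overlaps that of TAP1, and the spans of PSMB10 and CTRL overlap. Reads of PSMB9 and PSMB10 may thus not be fully separable from those of the overlapping genes.

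**Figure D3:**
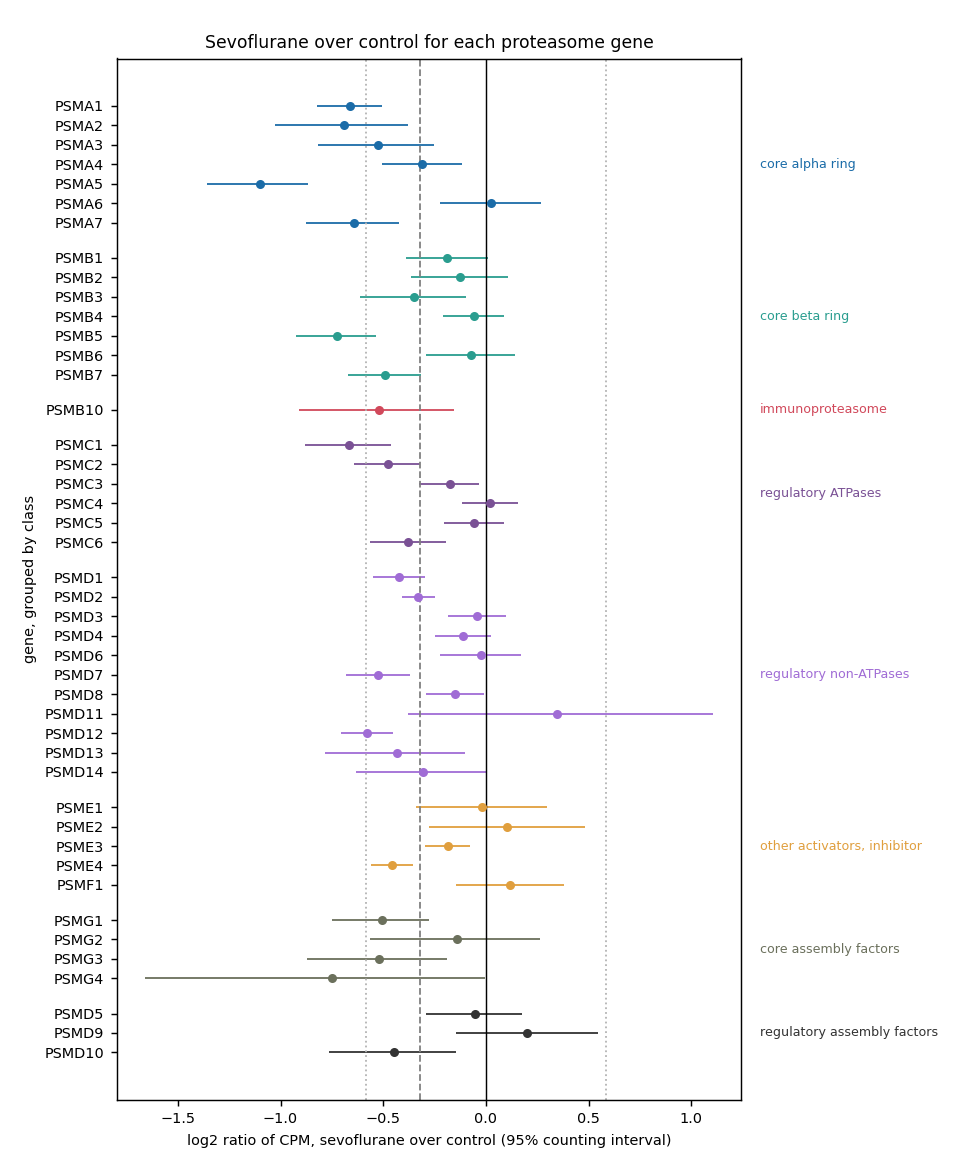
Log2 ratio of CPM, sevoflurane over control (horizontal axis), for each proteasome gene with its 95% counting interval, grouped and coloured by class. The solid line marks equal expression, the dashed line the median of -0.32 and the dotted lines 1.5-fold. PSMA5 lies furthest left at -1.10, and no interval lies wholly to the right of the solid line.

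Summed over its genes, the regulatory particle was lower by less than the core, and close to the beta ring. Its 17 genes summed to 1133 control and 930 sevoflurane CPM (log2 ratio -0.28, 95% interval -0.32 to -0.25), against -0.41 (-0.47 to -0.36) for the 14 core genes. The ratio of core to regulatory reads within a library changed by a factor of 0.914 (95% interval 0.873 to 0.957). Within the core, the beta ring was at -0.29 (-0.36 to -0.21), near the regulatory particle, and the alpha ring at -0.57 (-0.65 to -0.49). The lower value of the core thus came with the alpha ring.

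Of the 6 ATPases, which form the unfolding motor, 4 were lower by their intervals (median log2 ratio -0.28). They enter the complex as pairs, each pair held by its own chaperone. In the pair of PSMC1 and PSMC2, PSMC1 had 689 and 256 reads, or 41.0 and 25.8 CPM (-0.67, -0.88 to -0.46), and PSMC2 had 1060 and 449 reads, or 63.1 and 45.2 CPM (-0.48, -0.64 to -0.32). In the pair of PSMC4 and PSMC5 neither differed beyond counting error. PSMC4 had 1174 and 704 reads, or 69.9 and 70.9 CPM (0.02, -0.12 to 0.16), and PSMC5 had 1041 and 591 reads, or 61.9 and 59.5 CPM (-0.06, -0.21 to 0.09). PSMC3 and PSMC6 form the remaining pair and lay between the others. PSMC3 had 1123 and 587 reads, or 66.8 and 59.1 CPM (-0.18, -0.32 to -0.03), and PSMC6 had 783 and 356 reads, or 46.6 and 35.8 CPM (-0.38, -0.56 to -0.20).

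The reads of these chaperones changed relative to those of their clients. PSMD5, which binds PSMC1 and PSMC2, had 422 and 240 reads, or 25.1 and 24.2 CPM (log2 ratio -0.06, 95% interval -0.29 to 0.18), although its clients were lower. PSMD10, also named gankyrin, binds PSMC4 and PSMC5 and had 294 and 127 reads, or 17.5 and 12.8 CPM (-0.45, -0.76 to -0.15). PSMD9, which binds PSMC3 and PSMC6, had 175 and 119 reads, or 10.4 and 11.98 CPM (0.20, -0.15 to 0.55). Relative to the summed reads of its clients, PSMD5 was up by a factor of 1.41 (95% interval 1.17 to 1.7) and PSMD9 by 1.37 (1.07 to 1.77), and PSMD10 was down by a factor of 0.739 (0.589 to 0.924). The chaperone ratios too were chosen after the values were seen.

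Among the 11 non-ATPase subunits, 6 were lower by their intervals and 0 were at least 1.5-fold lower, with a median log2 ratio of -0.31. The large scaffolds at the base were PSMD2, with 3926 and 1846 reads, or 234 and 186 CPM (-0.33, -0.41 to -0.25), and PSMD1, with 1657 and 731 reads, or 98.6 and 73.6 CPM (-0.42, -0.55 to -0.30). The span of PSMD1 overlaps that of HTR2B in the same annotation. The ubiquitin receptor PSMD4 had 1227 and 671 reads, or 73.0 and 67.6 CPM (-0.11, -0.25 to 0.03). The lowest log2 ratio of the class was that of the lid subunit PSMD12, with 1778 and 703 reads, or 106 and 70.8 CPM (-0.58, -0.71 to -0.45), just short of 1.5-fold.

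The lid removes the ubiquitin chain before the substrate enters. Its deubiquitinase PSMD14 had 256 and 122 reads, or 15.2 and 12.3 CPM (log2 ratio -0.31, 95% interval -0.63 to 0.01), and its dimer partner PSMD7 had 1147 and 471 reads, or 68.3 and 47.4 CPM (-0.52, -0.68 to -0.37). The ratio of PSMD7 to PSMD14 reads changed by a factor of 0.862, with an interval that included 1 (0.673 to 1.11). Of the other lid genes, PSMD13 (-0.43) and PSMD8 (-0.15) were lower, the latter with an interval that ended at -0.01. PSMD3 (-0.04) and PSMD6 (-0.02) had intervals that included equal expression. PSMD11 had the highest log2 ratio of the 44 genes at 0.35, but with 38 and 29 reads, or 2.26 and 2.92 CPM, its interval ran from -0.38 to 1.10.

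The alternative activators and the inhibitor had a median log2 ratio of -0.02 over 5 genes. PSME1 and PSME2, which form the interferon-inducible activator of the core, did not differ beyond counting error. PSME1 had 228 and 133 reads, or 13.6 and 13.4 CPM (-0.02, -0.34 to 0.30), and PSME2 had 151 and 96 reads, or 8.99 and 9.67 CPM (0.10, -0.28 to 0.48). The span of PSME1 overlaps that of EMC9 in the same annotation. PSME3, the nuclear activator of the same family, was slightly lower, with 2036 and 1057 reads, or 121 and 106 CPM (-0.19, -0.30 to -0.08). PSME4, a large single-chain activator known from chromatin, had 2560 and 1101 reads, or 152 and 111 CPM (-0.46, -0.56 to -0.36), and its ratio to core reads changed by a factor of 0.969 (95% interval 0.894 to 1.05). PSMF1, which inhibits the isolated core, had 307 and 197 reads, or 18.3 and 19.8 CPM (0.12, -0.15 to 0.38). Relative to core reads, PSMF1 reads were higher in the sevoflurane library by a factor of 1.45 (95% interval 1.20 to 1.74).

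All 4 core assembly chaperones had log2 ratios below 0, with a median of -0.51, and 3 were lower by their intervals. They act as dimers that line up the alpha ring. PSMG1 had 511 and 212 reads, or 30.4 and 21.3 CPM (-0.51, -0.75 to -0.28), and its partner PSMG2 had 144 and 77 reads, or 8.57 and 7.75 CPM (-0.14, -0.56 to 0.26). The span of PSMG2 overlaps that of a protein-coding neighbour listed under a locus number in the same annotation. PSMG3 had 251 and 103 reads, or 14.9 and 10.4 CPM (-0.52, -0.87 to -0.19). Its partner PSMG4 had 53 and 18 reads, or 3.15 and 1.81 CPM (log2 ratio -0.75), with an interval whose upper end only just excluded equal expression, and it was no longer counted as lower with library totals, DESeq2 size factors or upper-quartile factors. The partners could not be told apart, since the ratio of PSMG1 to PSMG2 reads changed by a factor of 0.776 (95% interval 0.558 to 1.08) and that of PSMG3 to PSMG4 by 1.21 (0.658 to 2.30).

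**Figure D4:**
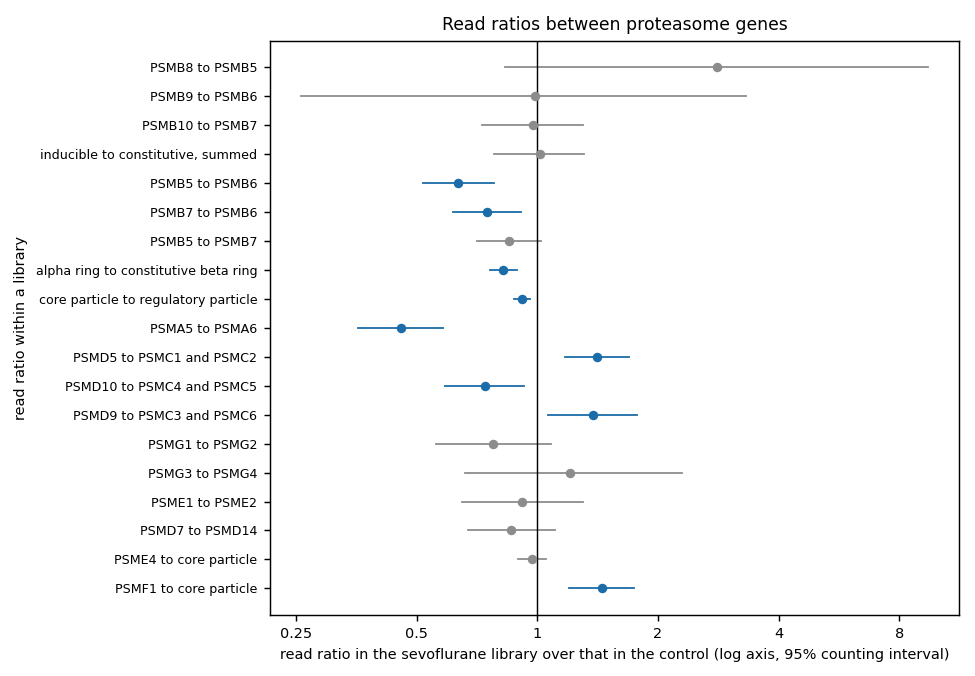
Ratio of reads of the named genes in the sevoflurane library over the same ratio in the control (horizontal log axis) with 95% counting intervals, for 19 ratios. The 9 ratios whose interval excludes 1 are blue, and all 9 were chosen after the values were seen. PSMA5 to PSMA6 lies lowest at 0.456, and PSMF1 to core and PSMD5 to its clients are the highest blue points at 1.45 and 1.41.

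Such ratios depend neither on the scaling nor on gene length. Of the 19 computed, the 4 between inducible and constitutive subunits all included 1, and 9 of the 15 others, chosen after their values were seen, excluded it. The intervals were not adjusted for the number of ratios. Set against the summed reads of the other proteasome genes, 11 of the 44 genes were lower and 14 were higher by their intervals. The other 19 had intervals that included no difference from the rest. The genes were thus not all shifted by a common factor beyond counting error. Against equal expression, 28.1% of all tested genes were lower and 28.4% were higher by their intervals. The counts of 11 and 14 were near those shares, so they are not particular to the proteasome genes. The log2 ratios of the 44 genes were less spread, with a standard deviation of 0.30 against 0.82 over all tested genes.

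Genes that work with the proteasome under other symbols were taken from lists. Of 48 listed, 45 were found in the table, SEM1 and UFD1 under the older symbols SHFM1 and UFD1L, and 42 were tested. By their intervals 20 of the 42 were lower and 8 were higher, against 28.1% lower and 28.4% higher over all tested genes, with a median log2 ratio of -0.16. At least 1.5-fold lower were 5 of the 42, at the level of the 11.9% of all tested genes, and at least 1.5-fold higher were 3, against 14.4%.

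Among the 5 subunits and assembly factors with other symbols, the range ran from -0.50 to 0.08. POMP, which matures the core particle together with the PSMG chaperones, was lowest, with 993 and 415 reads, or 59.1 and 41.8 CPM (log2 ratio -0.50, 95% interval -0.67 to -0.33). The small lid subunit SEM1 was highest, with 170 and 106 reads, or 10.1 and 10.7 CPM (0.08, -0.29 to 0.44). Enzymes bound to the proteasome had a median of -0.34 over 5 genes. USP14, a deubiquitinase that trims ubiquitin chains at the proteasome, was lowest, with 2457 and 922 reads, or 146 and 92.8 CPM (-0.65, -0.77 to -0.55), and the ligase UBE3B was highest at -0.05 (-0.17 to 0.07).

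Genes of substrate delivery differed in both directions. Of 11 shuttle and segregase genes 7 were lower and 3 higher by their intervals, against 28.1% and 28.4% of all tested genes, so the higher ones were near the background share. The segregase VCP, which pulls tagged proteins out of complexes and membranes, had 4841 and 1957 reads, or 288 and 197 CPM (log2 ratio -0.55, 95% interval -0.62 to -0.47). Its cofactor UFD1 was the highest of the list, with 554 and 378 reads, or 33.0 and 38.1 CPM (0.21, 0.01 to 0.40). Another member, DDI1, had 0 and 1 reads and was not tested.

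The ubiquitin genes and activating enzymes had a median log2 ratio of -0.30 over 6 genes. RPS27A, which encodes ubiquitin fused to a ribosomal protein, had 894 and 327 reads, or 53.2 and 32.9 CPM (log2 ratio -0.69, 95% interval -0.88 to -0.51). How the authors counted reads shared with processed copies of this gene is not given in the sources used here. The activating enzyme UBA6 was the lowest of the 6 genes, with 1362 and 463 reads, or 81.1 and 46.6 CPM (-0.80, -0.95 to -0.64).

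Transcriptional regulators of proteasome genes had a median log2 ratio of -0.08 over 7 genes. NFE2L1, the factor that raises proteasome gene expression when the proteasome is impaired, had 6225 and 3503 reads, or 370 and 353 CPM (-0.07, -0.13 to -0.01). NFE2L3, a relative of it, was the lowest, with 345 and 83 reads, or 20.5 and 8.36 CPM (-1.28, -1.66 to -0.95), and FOXO4 the highest at 0.34 (0.04 to 0.64).

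Genes of the interferon response and of antigen processing, which work with the immunoproteasome, had a median log2 ratio of 0.23 over 8 tested genes. The peptide transporter subunit TAP2 had 69 and 83 reads, or 4.11 and 8.36 CPM (log2 ratio 1.00, 95% interval 0.55 to 1.51), and B2M, the light chain of MHC class I, had 861 and 825 reads, or 51.2 and 83.1 CPM (0.70, 0.56 to 0.84). NLRC5, with 4 and 0 reads, and ERAP2, with 4 reads in each library, were not tested. TAP2 and B2M were thus higher where PSMB10 was lower. In the same library 5 of 10 microglia markers were higher and 1 was lower by their intervals, and 3 of 4 red blood cell markers were higher. Over all tested genes, 28.4% were higher and 28.1% were lower. The part of these cells in the values was not tested.

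**Figure D5:**
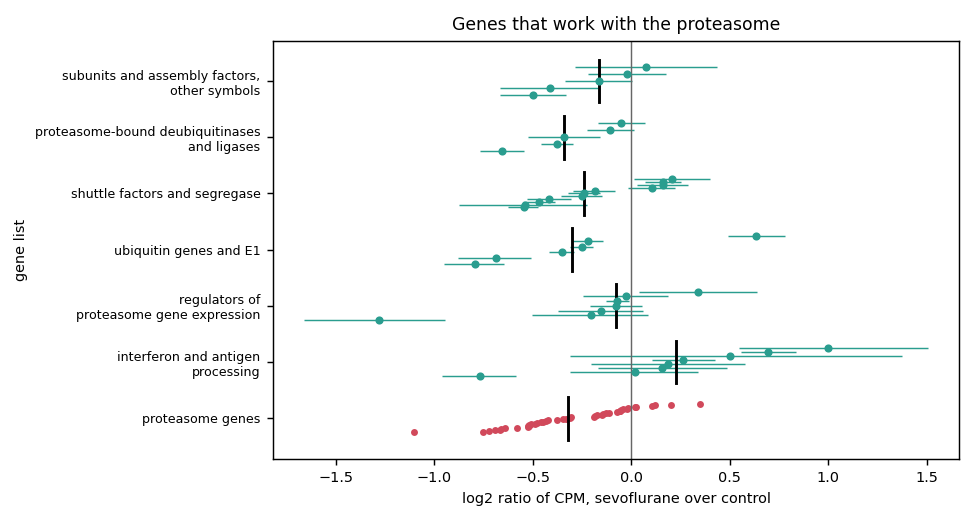
Log2 ratio of CPM, sevoflurane over control (horizontal axis), for the 42 tested genes of 6 lists that work with the proteasome (green, with 95% counting intervals) and for the 44 proteasome genes (red). Black bars are list medians, which run from -0.34 for the bound enzymes to 0.23 for interferon and antigen processing genes.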

How the data were processed

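RNA sequencing of prefrontal cortex from 1 control and 1 sevoflurane-treated rhesus macaque was analysed, matched to groups by the sample titles. The table the authors deposited holds raw read counts, 1 row per gene and 1 column per library, with no normalization. HISAT2 2.0.4 is named in the submitters' processing notes. The counting tool, genome build and annotation are not given in the sources used here, so no coordinates and no sequences are printed.

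TMM factors (edgeR 4.0.16, R 4.3.3) came from the genes reaching 1 CPM in the control or the sevoflurane library, at 0.991 and 1.01 respectively. Log2 ratios used a prior count of 2. For a gene, the interval converts the exact Clopper-Pearson bounds on its sevoflurane share (scipy 1.17.1, Python 3.11.15), and those of ratios within a library are exact conditional limits of the odds ratio. A gene counted as 1.5-fold apart also needed a 95% interval excluding equal expression. Without replicates the quasi-likelihood test of edgeR has no estimate of spread, so none was run.

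The members and lists were chosen with earlier results of these data known, and the 15 ratios within a library that do not involve inducible subunits were chosen after seeing the data. Members were named in full where they passed 1.5-fold, were the extremes of their class or had a catalytic, inducible, activating, inhibiting or assembly role, and as partners of these, and listed pathway genes where they passed 1.5-fold or were extremes. The remaining members are given briefly so that each is accounted for, and NFE2L1 (for its role), DDI1, NLRC5 and ERAP2 (too few reads) were added after their values were seen. All 48 symbols were found in the RefSeq table, which gave gene order and older symbols. PSME3IP1, ECPAS and DDI2 were not matched and are not analysed here. Some listed genes are counted in their lists and not reported here by name. The procedure was tested on simulated data. Alternatives were library totals, DESeq2 1.42.0 size factors, upper-quartile factors, a prior count of 0.5, filters of 1 read and of 5 CPM, control reads thinned to the sevoflurane depth, a 2-fold threshold and a 99.9% interval.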

Additional observations from a re-analysis of the deposited data

How the results depend on the processing

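The median log2 ratio of the proteasome genes lay between -0.33 and -0.29 under every alternative of scaling, prior count, filter and depth, and also without PSMD11 and PSMG4, which was chosen after seeing the data. The class medians kept their sign except that of the activators and inhibitor, which crossed 0 (-0.04 to 0.03). Library totals moved the summed log2 ratio to -0.29, by their own construction. The 2-fold threshold left 1 proteasome gene lower and gave 1364 higher and 988 lower genes in all, the filter of 5 CPM, with the scaling refitted on fewer genes, gave 1666 and 1427, and the stricter counting interval left 17 proteasome genes lower. PSMG4 lost its call under the 3 other scalings and PSMD8 with library totals, upper-quartile factors and the filter of 5 CPM. With the filter of 1 read PSMD12 passed 1.5-fold, and PSMB1 and PSMD14 became lower by their intervals. With the control sampled down, PSMA1 fell just short of 1.5-fold, and PSMA3 and PSMG3 passed it. No paired analysis was possible because control and sevoflurane have 1 library apiece, and no replicate could be left out. The depth of 9839105 reads limits the genes with few reads most, PSMB8, PSMB9, PSMD11 and PSMG4 among them.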
